A study of Mus musculus with 4 samples.

Results

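Of the 12885 regions in the deposited list of binding by the transcription factor SCL (also called TAL1) in day 3.5 FLK1+ mesoderm, 1032 had a summit more than 200 kb from the transcription start site (TSS) of every protein-coding gene. These gene-desert peaks were chosen by distance alone, from the summit of each region and the TSSs of all protein-coding transcripts of GENCODE vM1 on the mouse mm9 genome. They made up 8.01% of the list (Wilson 95% interval 7.55 to 8.49%). The nearest coding TSS was 315 kb away at the median, 203 of the peaks lay more than 500 kb and 37 more than 1 Mb from any coding TSS.

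The peaks came from 2 chromatin immunoprecipitation (ChIP) libraries made with an in-house rabbit anti-serum against SCL and 2 input libraries made without antibody. All 4 libraries came from embryoid bodies grown from wild-type embryonic stem cells of a C57Bl/6 X Sv129 background, which the study names J1, sorted for the mesoderm marker FLK1 at day 3.5, so that no other genotype, treatment or time was compared. The list was called once on the combined libraries and holds no value per library, so that the spread between replicates could not be given and each interval here covers counting error only. Peaks of a single list are not independent replicates, and the depth of each library is not given in the sources used here.

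SCL is a basic helix-loop-helix factor needed for the onset of blood formation. It binds DNA as a partner of an E protein at E-boxes (CANNTG) and is brought together with a GATA factor by the bridging proteins LMO2 and LDB1, so that the complex often covers a partial E-box, CTG, followed at a short distance by GATA. Gene deserts are long stretches without coding genes. Several of them flank genes of developmental transcription factors and hold enhancers that act over large distances, as is known for Sox and Tbx genes and for Myc.

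Sequence from 7 of the 15 highest desert peaks shows this arrangement and departures from it. The windows run from 50 bp before to 50 bp after the summit (101 bp in all), were read from the mm9 (NCBIM37) genome and are printed 5′ to 3′ on the strand that carries the motif. Each is named after its nearest coding gene. Capitals mark GATA motifs (AGATAA or AGATAG, and TGATAA or TGATAG, on either strand), E-boxes (CANNTG) and the CTG and GATA of a composite, in which 7 to 9 bp lie between CTG and GATA. Runx1, Enc1 and Cd83 are shown for a composite with 9 bp, Nova1 for one with 8 bp and 5930403N24Rik for both spacings in a single window. Lama4 is shown for E-boxes and a GATA motif without a composite, and Fndc3a for a GATA motif without an E-box or a composite. A CTG precedes the GATA of the Fndc3a window too, at a spacing just beyond the range of the composite.
Runx1 window, chr16:93147878-93147978, plus strand: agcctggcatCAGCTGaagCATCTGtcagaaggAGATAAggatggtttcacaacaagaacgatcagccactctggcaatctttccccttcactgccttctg
Enc1 window, chr13:98223126-98223226, minus strand: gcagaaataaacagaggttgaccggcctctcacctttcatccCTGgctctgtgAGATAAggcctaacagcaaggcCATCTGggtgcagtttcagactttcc
Nova1 window, chr12:47506756-47506856, plus strand: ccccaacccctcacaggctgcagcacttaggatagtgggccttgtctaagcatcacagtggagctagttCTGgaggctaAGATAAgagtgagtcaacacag
Cd83 window, chr13:44317709-44317809, plus strand: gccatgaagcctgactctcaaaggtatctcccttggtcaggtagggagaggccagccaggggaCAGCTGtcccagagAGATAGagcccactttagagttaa
5930403N24Rik window, chr10:37458931-37459031, plus strand: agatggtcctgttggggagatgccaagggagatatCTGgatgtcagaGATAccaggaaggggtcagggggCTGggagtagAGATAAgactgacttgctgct
Lama4 window, chr10:38103096-38103196, minus strand: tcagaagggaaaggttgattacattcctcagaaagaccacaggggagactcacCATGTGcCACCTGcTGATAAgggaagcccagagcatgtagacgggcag
Fndc3a window, chr14:72513331-72513431, plus strand: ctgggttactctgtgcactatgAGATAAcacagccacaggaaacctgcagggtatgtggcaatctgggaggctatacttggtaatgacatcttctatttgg

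The peak nearest to Runx1, which encodes a transcription factor required for the emergence of blood stem cells, was the highest desert peak. It spanned chr16:93147741-93148706, lay 321617 bp upstream of the Runx1 TSS and had a fold of 298 over background. Fold is the deposited ratio of fragments stacked at the summit to the local background, with 1 added to each. The stack held 1546 fragments against a background of 4.19, which gives a counting interval of 283 to 313 (exact Poisson) for the fold. Only 3 of the 12885 peaks of the list had a higher fold. The strongest of the peaks nearest to Runx1 that were not in the desert reached 124.

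The second, 212116 bp downstream of the TSS of Enc1, had a fold of 171 at chr13:98222819-98223479. It lay inside the noncoding gene Gm11019, 18251 bp from the nearest noncoding TSS. The third lay inside Cdh13, which encodes an atypical cadherin anchored to the membrane by a lipid, at chr8:121236909-121237474 and had a fold of 146. It was 398868 bp from the nearest of the gene's TSSs. The next, with a fold of 144, was 412956 bp from Nova1, a splicing regulator of neurons. The counting intervals of these folds were 159.8 to 182, 137 to 156 and 132 to 156, so that the Runx1 and Enc1 peaks stood clear of those below them and the Cdh13 and Nova1 peaks could not be put in order.

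The next 11 peaks had folds between 93.8 and 119. A peak with a fold of 119 lay inside Accn1, which encodes an acid-sensing ion channel, and was nearest to 5530401A14Rik. Another, 246782 bp from Rybp, a component of Polycomb complexes, also had a fold of 119. A peak with a fold of 113 lay between Gadd45g, a stress-response gene, and Diras2, a small GTPase, 307577 bp from the latter. The Cd83 peak, with a fold of 105, was 437205 bp from the TSS of Cd83, a surface protein of mature dendritic cells. The Lama4 peak, with a fold of 103, was 582175 bp upstream of the gene of a laminin chain of vessel walls. The peak of Fndc3a had a fold of 98.0 and that of 5930403N24Rik, 599617 bp away, 94.1. Neighbours in this order of the 11 had overlapping counting intervals. Of all 15, 10 held a composite, 4 held a GATA motif and an E-box without one, and 1, that of Fndc3a, held a GATA motif without either. A composite was present in 35.0% of all desert peaks and 32.9% of all peaks in the list. The share among equally high peaks outside the deserts is not given here.

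**Figure D1:**
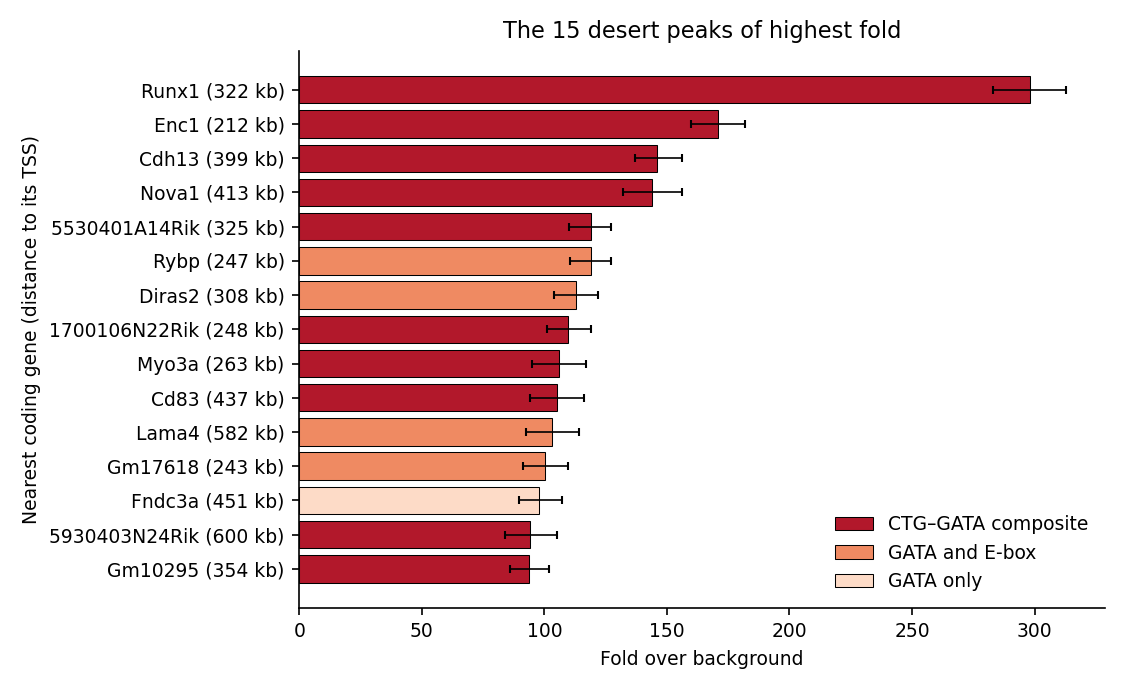
Fold over background of the 15 desert peaks of highest fold, each named by its nearest coding gene with the distance to its TSS; the bar colour gives the motif class and the error bars the exact Poisson interval from the fragments at the summit. The Runx1 peak stands at 298 and the last of the 15, nearest to Gm10295, at 93.8.

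Desert peaks were sparse. The sequence more than 200 kb from every coding TSS amounted to 592 Mb, 23.1% of the 2559 Mb of mm9 without gaps on the chromosomes that carry peaks, and held 1.74 peaks per Mb (exact Poisson interval 1.64 to 1.85). The rest of the genome held 6.03 per Mb (5.92 to 6.14), which was 3.46 times as many. Density fell in each step of distance, from 12.3 per Mb within 1 kb of a TSS to 4.62 between 50 and 200 kb, 2.29 (2.14 to 2.45) between 200 and 500 kb and 0.880 (0.763 to 1.01) beyond 500 kb. The interval of each class lay below that of the class before it.

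The fold of the peaks did not fall with density, while the medians of its parts, fragments and background, were lower beyond 200 kb. The median fold was 11.6 (order-statistic interval 11 to 12.5) in the 829 peaks between 200 and 500 kb and 12.2 (11 to 14.3) in the 203 beyond, against 11.4 (11.1 to 11.7) in the 3150 peaks between 50 and 200 kb, and these intervals overlap. Within 1 kb of a TSS the median was 9.90 (9.24 to 10.5). The median number of fragments at the summit was 52 between 50 and 200 kb, 50 between 200 and 500 kb and 46 beyond 500 kb, and the median background was 3.67, 3.14 and 2.62 in the same classes. Over all desert peaks the median fold was 11.6 (11.1 to 12.5). The lower quartile was 8.15, the upper 20.1 and the extremes 1.61 and 298. Over the other 11853 peaks the median was 11.1 (10.9 to 11.3).

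A fold of 10 or more was reached by 615 desert peaks (59.6%), beside 56.6% of all peaks in the list. A fold of 50 or more was reached by 65 (6.30%, 4.97 to 7.95%) beside 7.26% of all, and a fold of 100 or more by 12 (1.16%, 0.666 to 2.02%) beside 1.67%. The intervals of the last pair hold the share of all peaks, and that of the first, 56.6 to 62.5%, begins at it.

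**Figure D2:**
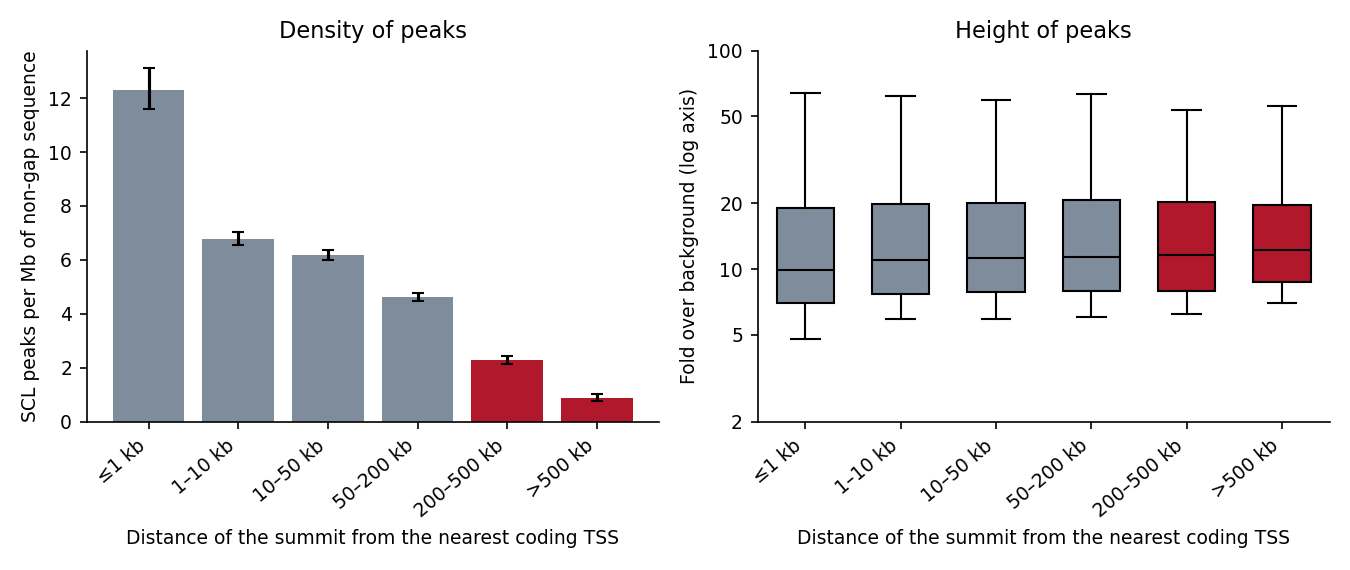
Left, SCL peaks per Mb of non-gap sequence in 6 classes of distance from the nearest coding TSS, with exact Poisson intervals; right, fold over background in the same classes on a log axis (line, median; box, quartiles; whiskers, 5th to 95th percentile). The desert classes, in red, have the lowest densities, 2.29 and 0.880, and median folds of 11.6 and 12.2.

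The median stack at the summit, recovered from the fold and its p-value, was 50 fragments (47.0 to 53.0) in the desert peaks and 53 (52.0 to 54.0) in the others, with overlapping intervals. The median local background was 3.10 in the desert peaks and 3.67 in the others. In 329 desert peaks (31.9%, 29.1 to 34.8%) the background was at 2.43, the lowest value in the list, against 13.2% (12.6 to 13.8%) of the others. Desert peaks were narrower, with a median of 370 bp (360 to 378) against 400 bp (397 to 404). The share of G and C in the 101 bp at the summit was 49.5% at the median, against 51.5% in the others, and 1 kb away it was 42.1% against 46.0%. The part of base composition and background in the fold and width was not tested.

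Density in the deserts rose with the G and C content of the surrounding sequence, taken in 100 kb tiles. In tiles below 37% the deserts held 0.574 peaks per Mb (0.458 to 0.710) and the rest of the genome 0.855 (0.664 to 1.08). Between 37 and 39% the values were 0.946 (0.828 to 1.08) and 1.61 (1.46 to 1.77), between 39 and 41% 1.98 (1.72 to 2.26) and 2.65 (2.49 to 2.81), and between 41 and 43% 4.17 (3.62 to 4.78) and 5.0 (4.77 to 5.23). At 43% or more they were 6.85 (6.10 to 7.67) and 9.92 (9.71 to 10.1). The desert value was the lower in each of the 5 classes, with overlapping intervals in the lowest class and between 41 and 43%. The 2 lowest classes held 148 and 244 Mb of the desert sequence.

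Among chromosomes other than Y, chromosome 13 had the densest deserts, with 88 peaks at 3.6 per Mb (2.89 to 4.44), followed by chromosome 8 with 84 peaks at 2.54 (2.03 to 3.14) and chromosome 7 with 50 at 2.5 (1.85 to 3.29), whose intervals overlap with each other. The X chromosome had the sparsest, with 23 peaks at 0.580 (0.368 to 0.870). Outside the deserts X was also the sparsest of these, at 2.12 per Mb, and chromosome 8 the densest, at 8.55, while chromosome 13 had 5.95 and chromosome 7 had 5.22. The median fold was 14.4 in the peaks of chromosome 13 and 13.4 in those of chromosome X. Chromosome Y had 5 peaks in 0.361 Mb of desert sequence, 13.8 per Mb (4.50 to 32.3), with a median fold of 3.0, and 3 of these stood on a background of over 36.7.

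GATA motifs were found at the summit of most desert peaks. A GATA motif lay in the 101 bp window of 796 (77.1%, 74.5 to 79.6%), against 22.1% (20.4 to 24.0%) of windows of the same length 1 kb to either side. In the list as a whole 73.2% of summit windows held one. The other peaks had 72.8% at the summit and 17.4% 1 kb away. The summit share was thus 4.32 percentage points higher in desert peaks (Newcombe interval 1.55 to 6.91), and the share away from the summit was higher too. Where a GATA motif was present, the one nearest to the summit was centred within 20 bp of it in 58.7% of desert peaks (55.2 to 62.0%) and in 58.3% of the others.

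The composite of CTG and GATA, seen in the Runx1 and Enc1 windows, was present in 361 desert peaks (35.0%, 32.1 to 37.9%) and in 3.34% (2.65 to 4.21%) of the windows 1 kb away. Among all peaks 32.9% held it. The composite contains the 4 letters GATA, and its CTG can be the end of an E-box, so that these counts overlap. The difference from the other peaks was 2.31 points with an interval from -0.668 to 5.38, and was not resolved. Beyond 500 kb the share was 40.9% (34.4 to 47.8%), against 33.5% (30.4 to 36.8%) between 200 and 500 kb, with overlapping intervals.

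The spacing of CTG and GATA in the desert peaks was concentrated at 9 bp and 8 bp. A pair 9 bp apart was found in 199 windows (19.3%, 17 to 21.8%) and one 8 bp apart in 141 (13.7%, 11.7 to 15.9%), against 1.11% and 1.02% of windows 1 kb away. At 10 bp, outside the composite as defined here, 78 windows (7.56%) held a pair. Among all peaks the shares were 18.3% at 9 bp, 12.3% at 8 bp and 6.46% at 10 bp. At 7 bp the desert share was 3.97%, within the 3.10 to 5.62% found at spacings of 11 to 20 bp. At 4 bp it was 7.17% (5.75 to 8.91%) against 4.44% in the other peaks, and at 0 bp 3.0% (2.12 to 4.23%) against 1.27%. These 2 spacings were picked out of 21 after their values were seen.

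**Figure D3:**
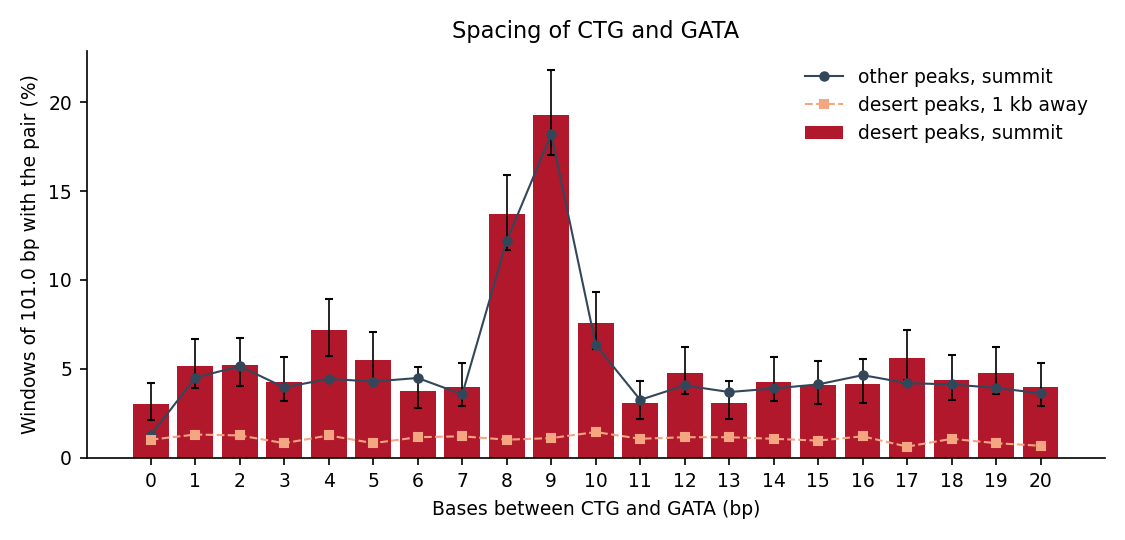
Share of 101 bp windows with CTG and GATA on the same strand at each spacing from 0 to 20 bp; bars, desert peaks with Wilson intervals; dark line, other peaks; dashed line, windows 1 kb from desert summits. The bars at 8 and 9 bp stand at 13.7% and 19.3%, and the dashed line stays near 1% throughout.

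An E-box of any kind lay at 553 desert summits (53.6%, 50.5 to 56.6%) and in 40.7% (38.6 to 42.8%) of windows 1 kb away, with 52.6% among all peaks. CATCTG was found in 202 summit windows (19.6%) against 6.35% away from the summit and CAGCTG in 136 (13.2%) against 3.88%, while CAGGTG was found in 83 (8.04%) against 4.75%. Among all peaks the 3 forms were in 19.6%, 14.1% and 7.37% of windows. The interval of the difference between desert and other peaks included 0 for each.

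Motifs of other factor families were added after the list had been read. The ETS motif (AGGAAG or CGGAAG, either strand) lay at 310 desert summits (30.0%, with 30.3% of all peaks) and in 13.7% of windows 1 kb away, and the RUNX motif (TGTGGT or TGCGGT, either strand) at 107 (10.4%, with 10.7% of all) against 7.32% away. The AP-1 motif (TGANTCA) lay at 68 (6.59%, with 5.02% of all) against 3.20% away. The AP-1 share was 1.70 points (0.287 to 3.43) above that of the other peaks, 1 of 9 motifs compared.

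**Figure D4:**
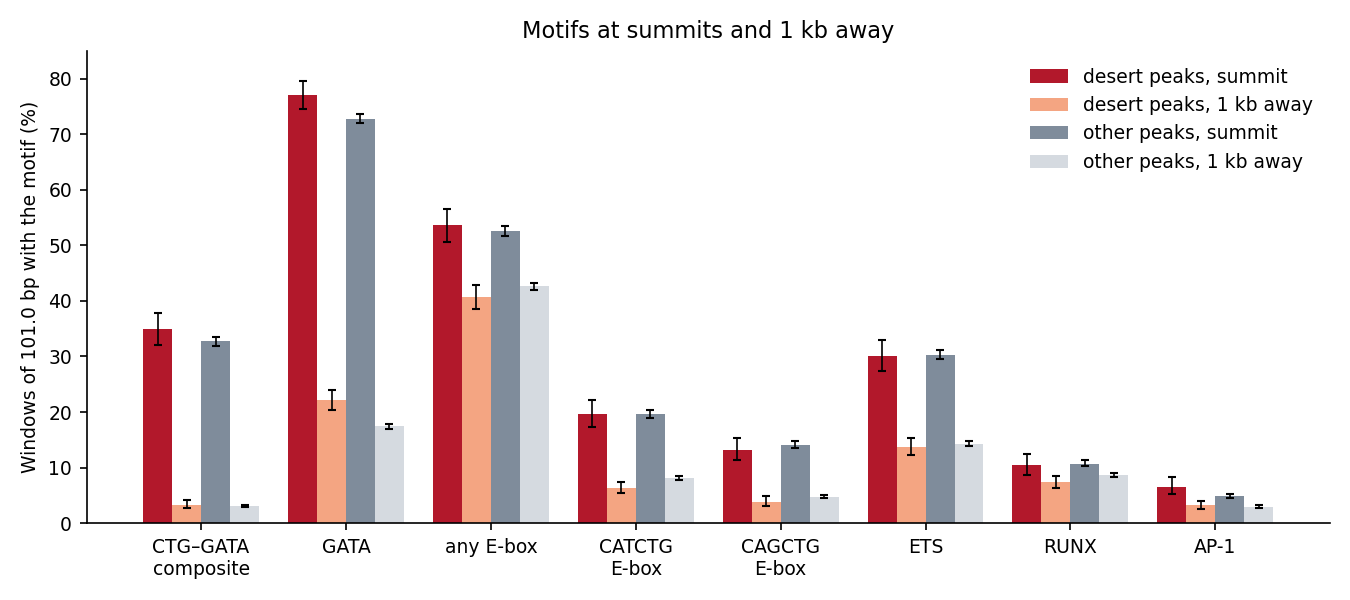
Share of 101 bp windows that hold each motif, at the summit and 1 kb to either side, in the 1032 desert peaks and the 11853 other peaks, with Wilson intervals. In desert peaks the composite goes from 3.34% away from the summit to 35.0% at it and GATA from 22.1% to 77.1%.

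The classes formed by these motifs differed in height. The 361 desert peaks with a composite had a median fold of 13.5 (12.2 to 14.8), the 255 with a GATA motif and an E-box but no composite 11.9 (10.5 to 13.4), the 218 with GATA only 11.6 (10.5 to 12.9), the 110 with an E-box only 10.3 (9.07 to 11.4) and the 88 with neither 9.16 (7.86 to 11.1). The intervals of neighbouring classes overlap, and that of the composite class lies above those of the E-box only and neither classes. The order was the same in the other peaks, with medians from 13.3 down to 8.62. Of the 65 desert peaks with a fold of 50 or more, 32 held a composite and 4 held neither motif. The same counts for other peaks of this height are not given here. An E-box without GATA was present in 10.7% of desert peaks and 13.0% of the others, a difference of -2.33 points (-4.18 to -0.218).

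The name gene desert held for most of the peaks but not for all. A total of 164 (15.9%, 13.8 to 18.2%) lay inside a protein-coding gene, far from its start, and 1 of these was in an exon. Among the other peaks 48.5% lay inside a coding gene. A desert peak can lie only inside a gene longer than 200 kb, so the limit itself bears on this contrast. The genes with the most desert peaks inside them were long, as the limit requires of any gene that holds one. Accn1, Pard3b and the oxidoreductase gene Wwox had 6 each over 1088, 1003 and 913 kb. Gpc5, a cell-surface proteoglycan of the glypican family, and Sdk1, a cell adhesion gene, had 5 each over 1432 and 974 kb. The 4 in Cdh13 had folds of 146, 16.0, 15.4 and 14.8. The 164 peaks inside genes had a median fold of 11.2 (10.3 to 12.5) and the 868 between genes 11.9 (11.1 to 12.8).

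A further 39 peaks (3.78%, against 2.67% of the others) lay within a lincRNA or processed-transcript gene, and 829 (80.3%) lay outside genes of all 3 kinds. Within 10 kb of the TSS of such a noncoding gene there were 22 desert peaks (2.13%, 1.41 to 3.21%), against 6.34% (5.92 to 6.80%) of the others, and within 1 kb there were 5 (0.484%, 0.207 to 1.13%), against 1.11% (0.940 to 1.32%). The highest of the 5, at chr12:108397551-108398891, had a fold of 63.6 and lay 126 bp from the TSS of Gm16084. The other four had folds between 7.0 and 13.5.

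A desert here is the stretch between successive coding TSSs, or from the last TSS to a chromosome end. Both TSSs can belong to the same gene, as in Cdh13, whose 4 peaks lie between TSSs of its own. Of 1119 deserts with sequence more than 200 kb from a TSS, 482 (43.1%) held a peak. A single peak was found in 232, a pair in 116 and 3 or more in 134. These 134 held 568 peaks, 55.0% of all desert peaks. The deserts with a peak had a median length of 895 kb. The 8 deserts with the most peaks held 77 between them. The last of the 8, Gfra2 to Fndc3a, had 7 peaks, as did Nphp4 to Ajap1, and was taken for its larger sum of folds.

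The desert between Cd83 and Jarid2 on chromosome 13 held the most, 14 peaks in 944 kb. Jarid2 encodes a subunit of Polycomb repressive complex 2. The peaks spanned 452 kb, with 7 nearer to each gene. Their folds ran from 6.47 to 105 with a median of 9.78, and the upper 5 were 105, 69.9, 63.8, 35.1 and 26.4. The peak of 63.8, at chr13:44597000-44597710, rested on 598 fragments, more than the 366 of the peak of 105, and on a background of 8.38 against 2.51. A composite was present in 5 of the 14 and a GATA motif in 7.

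Between Med13l, a Mediator subunit gene, and Tbx3, a T-box factor of heart and limb development, 11 peaks in 1110 kb had folds from 6.93 to 34.6. Of these, 8 were nearer to Med13l and 3 to Tbx3, and 4 formed a group of 6.52 kb with folds of 34.6, 14.3, 24.3 and 13.7. Tbc1d22a to Fam19a5 held 10, from 7.32 to 51.6, of which 3 were inside Tbc1d22a and 9 had a GATA motif. Wwox to Maf held 10, from 5.77 to 39.1. Maf encodes a bZIP transcription factor, and 6 of the 10 lay nearer to its TSS than to that of Wwox, although 6 of the 10 lay inside the body of Wwox. The highest, with a fold of 39.1, lay 292578 bp from Maf and formed a group of 5.93 kb with peaks of 20.2 and 5.77.

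In the desert of 4930452B06Rik and Fhit 9 peaks ran from 5.97 to 45.8, and 8 had a GATA motif. Prl5a1 to Sox4 held 8, of which 7 were nearer to Sox4, an SRY-related factor of many progenitor cells, and all 8 peaks of the list that had Sox4 as nearest gene were desert peaks. The folds of these 7 were 42.3, 35.9, 30.9, 20.3, 19.9, 7.94 and 7.57, at 249641 to 394595 bp from the TSS. Gm6816 to Sox6, a factor of red cell and cartilage development, also held 8, from 8.49 to 59.3, all with a GATA motif. The 7 nearest to Sox6 ran up to 30.4, and 3 of them were inside the gene. Gfra2 to Fndc3a held 7, from 7.28 to the 98.0 of the Fndc3a window. Its peaks were spread over 1050.1 kb, and 1 of the 7 had a composite.

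**Figure D5:**
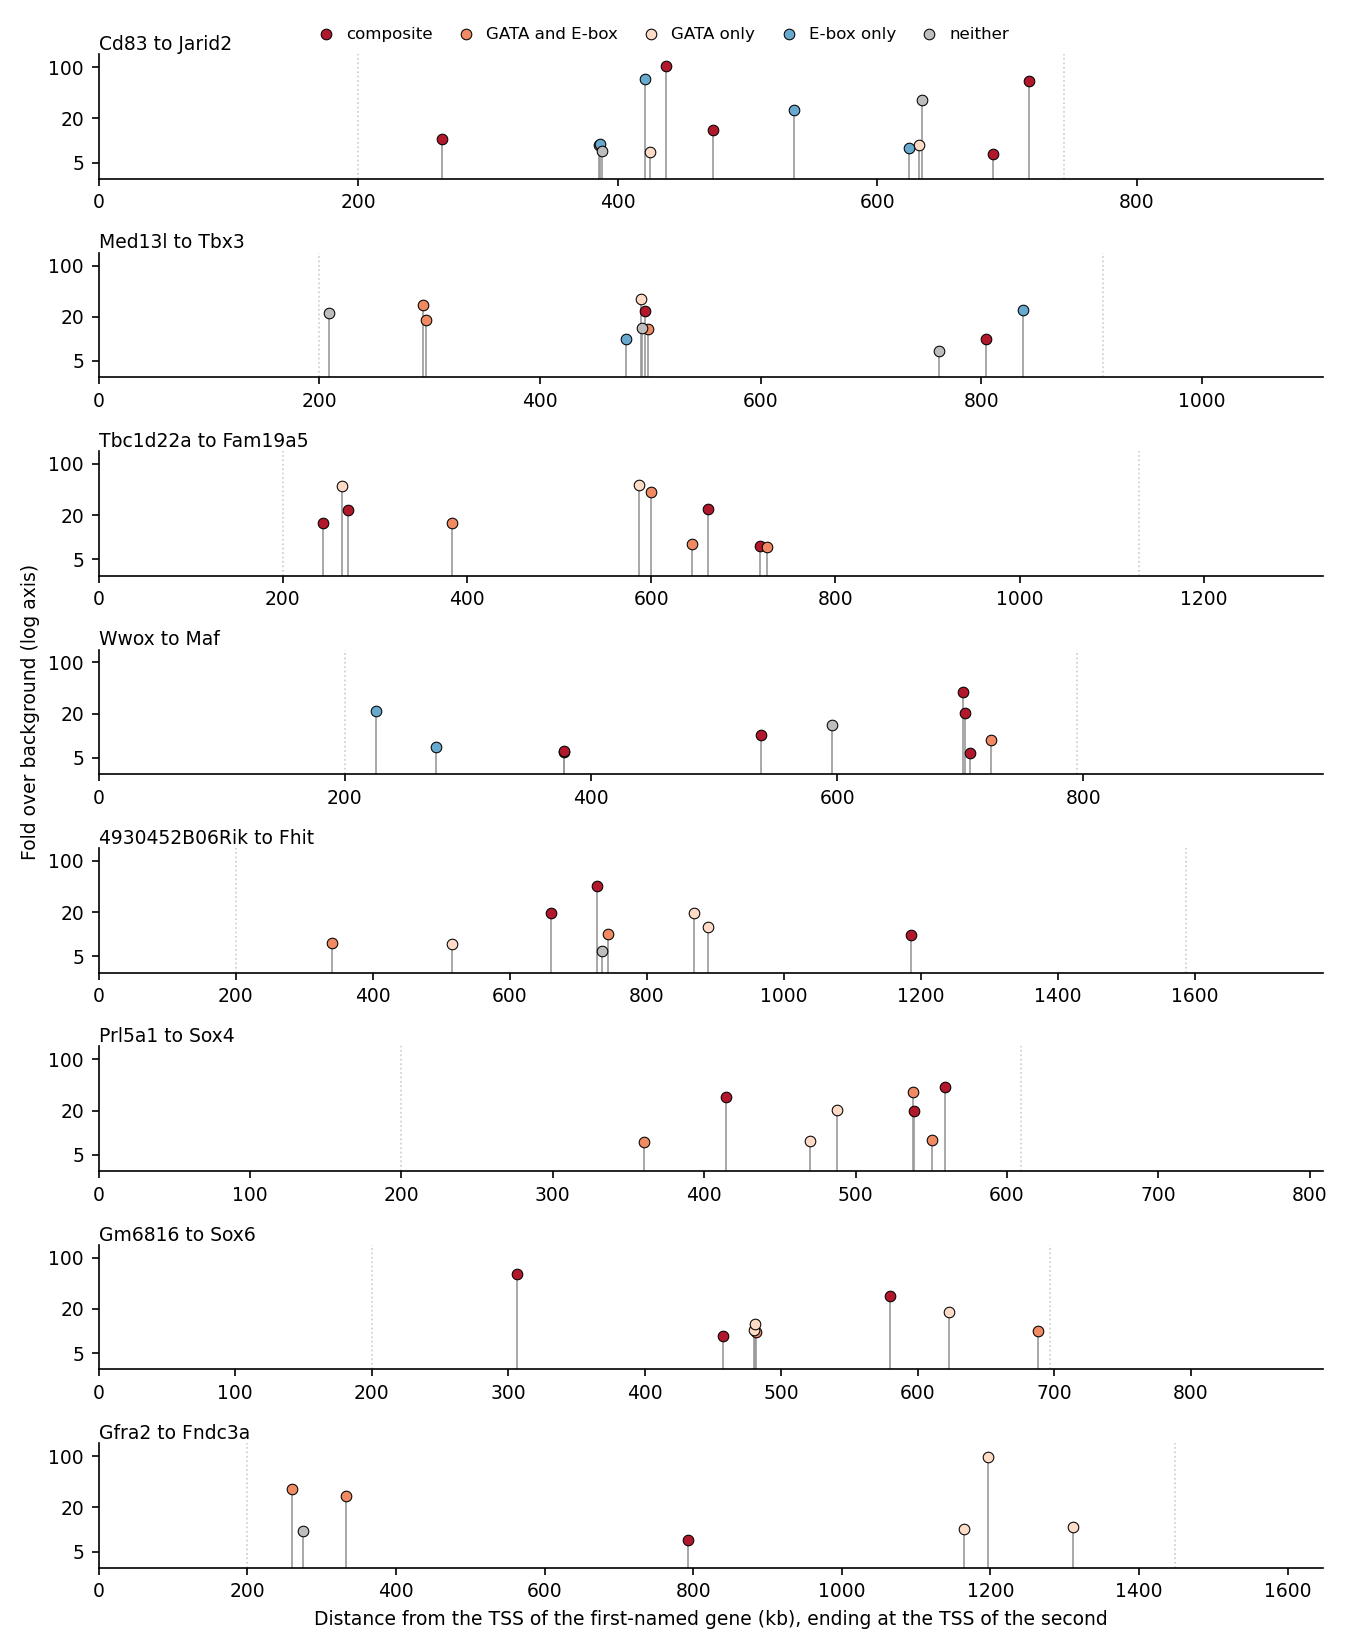
Positions and folds (log axis) of the peaks in the 8 deserts with the most, with the tie for the last place broken by the sum of folds, drawn from the TSS of the first-named gene to that of the second; dotted lines mark 200 kb from each, and colours give the motif class. The Cd83 to Jarid2 desert holds 14 peaks, the highest at 105, and 7 of the 8 peaks between Prl5a1 and Sox4 lie in the part nearer to Sox4.

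Desert peaks stood alone more often than others. Another peak of the list lay within 10 kb of 212 (20.5%, 18.2 to 23.1%), against 32.0% (31.2 to 32.8%) of the other peaks and 29.6% (28.1 to 31.2%) of those 50 to 200 kb from a TSS. The difference from the other peaks was -11.4 points (-14.0 to -8.75). The nearest summit was 75.8 kb away at the median, against 25.5 kb. Desert peaks with a near neighbour had a median fold of 12.2 (10.4 to 14.8) and those without 11.6 (11.1 to 12.5). In the other peaks the values were 12.2 and 10.8. The lower density of peaks moves with this difference, and its part was not tested.

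Joined at gaps of up to 10 kb, the desert peaks gave 824 single peaks, 69 pairs, 15 groups of 3, 5 of 4 and 1 of 5. Near Gadd45g 4 peaks in 14.9 kb had folds of 49.3, 14.0, 30.1 and 34.1. In the desert of A1bg and Myc, a proto-oncogene that drives growth, 4 peaks at chr15:61271404-61275228 had folds of 9.43, 40.5, 52.0 and 8.45. These were nearer to A1bg, while 4 other desert peaks, with folds of 46.0, 23, 14.8 and 7.14, had Myc as nearest gene. Of those 4, 1 lay in the same desert and 3, the peak of 46.0 among them, lay on the other side of Myc. Between Fbxo8 and Hand2, a basic helix-loop-helix factor of the heart, 4 peaks had folds from 6.64 to 12.4. Near Enc1 the peak of 171 had neighbours of 20.1 and 5.91. The group of 5 had Pgk2 as nearest coding gene, 360834 to 365309 bp away. Its folds ran from 2.68 to 5.02, with every peak on a background above 36.7. In 1 of the groups of 4, nearest to Gm3395 on chromosome Y, 2 of the 4 peaks were above that value.

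The desert peaks had 581 different nearest coding genes. For 217 of these, with 332 desert peaks, every peak assigned to the gene by distance was in the desert. The remaining 364 genes had desert peaks and nearer ones, and in 161 (44.2%) the highest of them was a desert peak. Desert peaks were 40.6% of the peaks of these 364 genes. The peaks lay upstream of the nearest TSS in 465 cases (45.1%, 42.0 to 48.1%), against 49.2% of the other peaks. Distance assigns a gene by position only, and no contact or expression was measured here.

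Genes of blood and endothelium, a list of 61 names of which 59 matched the annotation, were nearest to 26 desert peaks (2.52%, 1.73 to 3.67%) and to 2.20% of the others. Desert sequence lay nearest to 16 of these genes, and 9 of them had a desert peak. Runx1 had 5, with folds of 298, 92.8, 22.8, 9.41 and 5.12 at 304 to 371 kb, among its 16 peaks in all. Cdh5, the cadherin of endothelial junctions, had 4 low ones from 4.99 to 7.14. Efnb2, a ligand of arterial endothelium, had 4 from 7.05 to 11.5, while its highest peak outside the desert reached 90.6. Ets1, a factor of blood and endothelium, had 3 with folds of 66.4, 12.5 and 8.15, and Runx1t1, a corepressor gene, had 3 with folds of 32.1, 28.9 and 8.74, whereas their highest nearer peaks reached 225 and 331. Of the 6 genes with most desert peaks in this list, Runx1 alone had its highest peak in the desert.

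The list of heart and mesoderm genes gave 14 peaks (1.36%) near 8 of the 23 genes with desert sequence, out of 54 matched, against 1.05% of the others. Ryr2, the calcium release channel of heart muscle, had 3 inside the gene, with folds of 64.6, 20.1 and 7.57. Tbx3 had 3 from 6.93 to 24.4, Hand2 had 31.9 and 8.35, and Bmp2, a signalling ligand, had 12.6 and 6.21 beside a peak of 147 outside the desert. Foxc1 had 1 of 36.4 and Foxc2 had 1 of 26.

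Families of developmental transcription factors (Hox, Sox, Fox, Tbx, Irx, Maf and others, 300 genes by their symbols) were nearest to 92 desert peaks (8.91%, 7.33 to 10.8%) and to 3.26% of the others, a difference of 5.66 points (4.03 to 7.58). Desert sequence lay nearest to 76 of these genes, and 37 of them carried the peaks. After Sox4 with 8, Maf had 7 and Sox6 had 7. Runx1, which is also in the blood list, had 5, with the folds given there. Foxk1 had 5 with folds from 9.42 to 41.6, which lay inside the neighbouring gene Sdk1. Irx1 had 4 with folds of 65.6, 27.7, 17.2 and 14.8. These families were nearest to 4.02% of the desert sequence, 23.8 Mb, in which the density was 3.87 peaks per Mb (3.12 to 4.74) against 1.74 in all deserts. Desert density also moved with G and C content and with distance from the TSS. The densities of this and the other gene lists were not matched for either, and their part was not tested.

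Families of axon guidance and adhesion genes (203 by symbol, with Cdh, Pcdh, Cntn, Epha, Slit and Robo among them) were nearest to 86 desert peaks (8.33%, 6.80 to 10.2%) and to 2.05% of the others, a difference of 6.28 points (4.72 to 8.14). Here the desert sequence went the other way. These genes were nearest to 13.6% of it, 80.7 Mb, with 1.07 peaks per Mb (0.853 to 1.32), below the 1.74 of all deserts. Cdh13, Cdh5, Cntnap5a, Efnb2, Dcc, a netrin receptor, and Nrp2, a receptor for semaphorins and VEGF, had 4 desert peaks each. Those of Nrp2 had folds of 45.1, 37.2, 14.6 and 5.38 and lay inside the neighbouring gene Pard3b, those of Dcc 35.8, 34.1, 9.0 and 6.76, and those of Cntnap5a 15.2, 13.7, 11 and 8.91.

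For the blood list the desert sequence amounted to 7.62 Mb with 3.41 peaks per Mb (2.23 to 5.0), and for the heart list to 7.53 Mb with 1.86 (1.02 to 3.12). The study's list of genes activated by SCL (483 of 514 names matched) was nearest to 87 desert peaks (8.43%, 6.89 to 10.3%) and to 12.5% of the others, a difference of -4.09 points (-5.75 to -2.15). Its genes were nearest to 3.37% of the desert sequence, with 4.36 peaks per Mb (3.49 to 5.37). The genes listed as repressed (248 of 264 matched) were nearest to 38 (3.68%, 2.69 to 5.01%) and to 4.11% of the others, with 1.73 peaks per Mb (1.23 to 2.38). The study drew up both lists with the same binding data, so that they are not independent of the peaks.

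Among the activated genes with most desert peaks, Sox6 had 7, Runx1 and Ajap1 had 5, and Enc1, Gadd45g, Cdh5, Efnb2 and Zfp608 had 4. The highest fold was 171 near Enc1, 49.3 near Gadd45g, 11.5 near Efnb2, 8.58 near Zfp608 and 7.14 near Cdh5. Those of Ajap1, a junction-associated protein, had folds of 64.4, 11.4, 7.72, 7.14 and 6.60. Among the repressed genes Rbfox1, a splicing regulator of neurons and muscle, had 5 with folds of 41.6, 35.0, 18.9, 14.2 and 12.8, and Trib2, a pseudokinase gene, had 4 with folds of 53.9, 21, 14.3 and 10.2. Celf4, a gene of an RNA-binding protein, also had 4, with folds of 14.9, 11.9, 10.5 and 7.57. Jag1, a Notch ligand, had 3 from 7.86 to 22.4, Pcdh7, a protocadherin, had 3 from 17.2 to 21.3, and Pcp4 had 3 from 10.8 to 33.3.

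The peak farthest from any coding TSS, 2140281 bp from Cdh20 at chr1:104524770-104524953, had a fold of 4.64 on a background of 28.3. The next 3 lay 1990331 bp from Gm10110 with a fold of 6.36, 1922932 bp from Olfm4 with 10.8 and 1622461 bp from Cdh9 with 11.1. The last held a composite, the Gm10110 and Olfm4 peaks a GATA motif and an E-box, and the first an E-box only. The 3 peaks just inside the limit were 200014 bp from Foxc2 with a fold of 26, 200042 bp from Cstf2t with 6.36 and 200059 bp from Zc3h12c with 9.32. The 3 just outside were 199904 bp from 4931417E11Rik with 7.51, 199834 bp from Diap2 with 12.8 and 199796 bp from Ankrd55 with 21.8.

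A background above 36.7, which is 10 times the median of the list, was found under 9 of the 1032 desert peaks and 61 of the 11853 others. The 9 had folds from 1.61 to 5.02 with a median of 3.10, on 145 to 1111 fragments, and none held a GATA motif or a composite. Among the 61 others, 11 held a GATA motif and 4 a composite. Of the 9, 5 formed the group at chr17:39979974-39985716 with Pgk2 as nearest gene. Another 3 lay on chromosome Y, nearest to Gm3395, and 1 on chromosome 15, nearest to Fam19a5. Without them the median fold of the desert peaks was 11.8 (11.1 to 12.5) over 1023 peaks.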

How the data were processed

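The study aligned the reads to mm9 with Bowtie 1.1.2 and called regions with MACS2 2.0.10 at a q threshold of 0.01 on the 2 ChIP libraries combined against input, keeping those reproducible between replicates; tools and versions follow the submitters' processing notes. The 12885 deposited regions carry, by the authors' peak caller, a score, a fold over local background, and a -log10 p-value and q-value. Fold and p were solved for the whole number of fragments at the summit and the background, which matched within 0.001 for 99.9% of peaks. This step was checked on simulated data, whose range did not reach the highest stacks and backgrounds of the list. No value per library is in the list. The list holds more regions than the number of bound loci given in the study's text, and shares and densities here refer to the whole list.

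Distances ran from each summit to 69976 TSSs of 22380 protein-coding genes of GENCODE vM1, and sequence came from NCBIM37, whose chromosome lengths match mm9. Density counted bases other than gaps. Motifs were searched on both strands in 101 bp at the summit and 1 kb to either side. Shares carry Wilson, differences Newcombe, densities exact Poisson and medians order-statistic 95% intervals. No test was run over peaks, and the fold classes of 10, 50 and 100 describe height. Named were the 15 desert peaks of highest fold, the 4 farthest, 3 on each side of the 200 kb limit, the 8 deserts with most peaks and up to 6 genes of each list; other genes and groups were named after their values were seen. The peaks and gene lists were chosen with earlier results of these data known. The study's lists were used by gene name and direction only. RUNX, ETS and AP-1 motifs, single E-box forms, the spacing scan, base composition classes and the desert sequence of each list were added after the list was read. Computation used Python 3.11.15, numpy 2.4.6, pandas 2.3.3, scipy 1.17.1, pysam 0.24.0 and matplotlib 3.10.9. The alternatives were other distance limits, other TSS sets, higher thresholds, other windows and other neighbour distances.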

Additional observations from a re-analysis of the deposited data

How the results depend on the processing

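Of 94 alternative values, 51 stayed within the interval of the reported value, or within 1.5 times for a count. With a limit of 100 kb (2387 peaks) the share of the list was 18.5%, density 2.59 per Mb, GATA 73.4%, a neighbour within 10 kb 26.1%, inside genes 24.1% and high background 14 peaks. With 500 kb (203 peaks) these were 1.58%, 0.880, 83.7%, 17.7%, 5.91% and 0, with a composite in 40.9%, an E-box in 58.1% and a median width of 354 bp. Counting noncoding TSSs too gave 857 peaks, 6.65% and 1.62 per Mb. A single TSS per gene gave 1362 peaks, 10.6%, 1.98 per Mb and 31.4% inside genes. Without peaks inside coding genes the share was 6.74%. At a fold of 10 or more (615 peaks) density was 1.04 per Mb, median fold 17.8, width 402 bp, composite 39.2%, GATA 81.0%, neighbour 13.0% and high background 0. At a -log10 q of 50 or more (419 peaks) these were 0.707, 22.9, 449 bp, 38.4%, 80.0%, 12.9% and 5. Around the centre of the peak in place of the summit, composite was 27.2% and GATA 64.6%, and with 100 bp on each side of the summit composite, GATA and E-box were 44.2%, 88.1% and 75.4%. A neighbour was found in 13.3% within 5 kb, 42.7% within 50 kb and 18.0% after peaks within 500 bp were merged. Fewer bases, fewer peaks or longer windows follow from the settings themselves, and no other cause was tested. No paired analysis was possible because values per library are absent from the peak list, and leaving out each replicate could not be run for the same reason. Depth per library is not given in the sources used here, so a peak absent from the list is only one not called at this depth.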
